A study of Mus musculus with 4 samples.

Results

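The genes described are 10 genes of heme and iron handling, measured in mouse lung after clean air or cigarette smoke: Hmox1, Fth1, Ftl1, Slc40a1, Cp, Tfrc, Slc11a1, Slc11a2, Steap3 and Steap4. They were chosen by name, with the array feature whose annotation gave that symbol and no other, and, where a gene had several such features, the one with the highest mean over the 4 arrays. All 10 were found among 30142 genes with such a feature, and all 10 lay above the expression floor that left 18084 genes to be tested. Lungs came from male C57BL mice, an inbred laboratory strain, that were 10 weeks old when exposure to clean air or to mainstream smoke, the smoke drawn through a burning cigarette, began. Exposure lasted 1 h daily, 5 days a week. The 4 groups were clean air for 2 weeks (5 mice, aged 12 weeks at the end), smoke for 2 weeks (5 mice, 12 weeks), clean air for 4 weeks (5 mice, 14 weeks) and smoke for 4 weeks (4 mice, 14 weeks). No genotype or agent besides smoke was given for any group. The animals of a group were mixed into 1 pool on 1 array, so a single pair of pools had no replicate check and the spread between mice could not be seen.

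Cells take up iron bound to transferrin through the transferrin receptor, reduce it in endosomes with STEAP metalloreductases and move it to the cytosol through the metal transporter DMT1 (Slc11a2). Iron not in use is stored in ferritin, and ferroportin (Slc40a1) exports it with the help of ferroxidases such as ceruloplasmin (Cp). Heme oxygenase 1 (Hmox1) opens the heme ring and frees its iron. In the lung, alveolar macrophages clear inhaled particles and dying cells and are known as a site of iron storage, and cigarette smoke itself carries iron and oxidants.

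Steap4 rose about 4.10-fold with smoke, and the other 9 genes did not pass the test. Cp, Hmox1, Slc11a2 and Fth1 lay higher in both smoke pools than in both control pools and did not pass. Averaged over the durations, their smoke differences were 1.16-fold to 1.33-fold. Tfrc, Slc40a1 and Steap3 had effects between 0.015 and 0.051 log2 units. Values are log2 of the deposited intensity, and an effect is log2 smoke minus log2 control averaged over the durations, given ± its standard error, from limma with terms for smoke and duration over 2 smoke and 2 control pools. The word rose is kept for genes whose Benjamini-Hochberg adjusted p, over all 18084 genes, was under 0.05. No group had a second pool, so each gene's own error came from the change of its smoke difference between 2 and 4 weeks (1 residual degree of freedom), and limma weighted this with a prior variance taken over all genes (5.38 prior degrees of freedom). The standard errors therefore rest mainly on that shared prior and are much alike from gene to gene. In such bulk RNA, more cells of a type and more RNA per cell cannot be told apart.

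**Figure D1:**
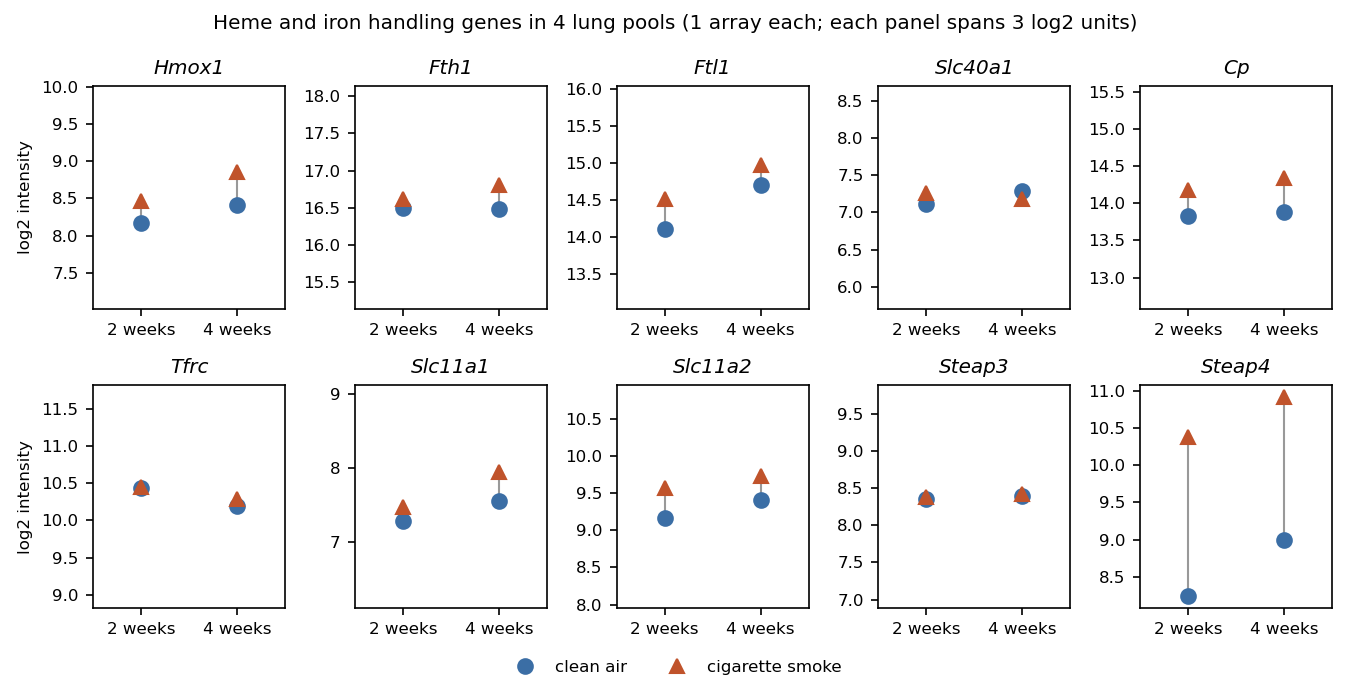
Log2 intensity of each gene in the 4 lung pools, by weeks of exposure (x axis); circles are clean air, triangles cigarette smoke, 1 array each, and grey lines join the pools of the same duration. Every panel spans the same height, and Steap4 has the longest lines, from 8.24 to 10.39 and from 8.99 to 10.92.

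Steap4 encodes a membrane metalloreductase that reduces iron and copper and is known to be induced by inflammatory cytokines. Its log2 intensity was 8.24 with clean air and 10.39 with smoke at 2 weeks, and 8.99 with clean air and 10.92 with smoke at 4 weeks. Both smoke pools therefore lay above both control pools, with a gap wider than the distance between the controls. The difference was 4.43-fold after 2 weeks and 3.79-fold after 4 weeks, and the effect was 2.04 ± 0.110 (limma adjusted p = 0.00156). The clean-air pools themselves differed 1.69-fold, the later one being higher. The call held after median centring of the arrays (adjusted p = 0.0401) and after cyclic loess (adjusted p = 0.0324), and over all settings tried the adjusted p ran from 2.46e-08 to 0.918. Without the duration term the effect, 2.04, cannot differ, since the design is balanced, but the call was lost (limma adjusted p = 0.166). In that fit 0 of all genes passed with limma, although 1163 reached an unadjusted p under 0.05. In fits of 3 pools without duration, the effect was 1.66 on leaving out the 2-week control pool (adjusted p = 0.113; 4 of all genes rose and 2 fell), 2.30 without the 2-week smoke pool (0.408; 0 of all genes passed, 1469 unadjusted), 2.41 without the 4-week control pool (0.0292; 25 rose and 9 fell) and 1.77 without the 4-week smoke pool (0.918; 0 passed, 597 unadjusted). The effect thus stayed at 1.66 or more in these limma fits, in which few or no genes of the whole array passed.

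Steap3, the family's endosomal ferrireductase best known in red cell precursors, stood at 8.36 and 8.37 (clean air, then smoke) at 2 weeks and at 8.39 and 8.42 at 4 weeks. These 4 values overlapped between smoke and control and lay close together. The effect was 0.023 ± 0.100 (limma adjusted p = 0.975), and its sign at 2 weeks turned after median centring (-0.016) and cyclic loess (-0.015).

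The 250 bases before the start of Steap4 are shown because Steap4 alone of the 10 genes rose, beside those of Lcn2, whose protein lipocalin 2 binds iron-siderophore complexes and which rose with it. Both are RefSeq windows of build GRCm38.p6, 5′ to 3′ on the gene's strand, Steap4 at chr5:7960222-7960471 (plus strand) and Lcn2 at chr2:32387740-32387989 (minus strand). Capitals mark matches to TTCNNNGAA, the spaced palindrome of STAT transcription factors.
Steap4: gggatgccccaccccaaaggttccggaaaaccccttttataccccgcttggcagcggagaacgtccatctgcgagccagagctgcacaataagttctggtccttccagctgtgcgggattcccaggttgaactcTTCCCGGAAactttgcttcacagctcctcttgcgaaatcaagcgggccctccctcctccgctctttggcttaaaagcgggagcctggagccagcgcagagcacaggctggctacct
Lcn2: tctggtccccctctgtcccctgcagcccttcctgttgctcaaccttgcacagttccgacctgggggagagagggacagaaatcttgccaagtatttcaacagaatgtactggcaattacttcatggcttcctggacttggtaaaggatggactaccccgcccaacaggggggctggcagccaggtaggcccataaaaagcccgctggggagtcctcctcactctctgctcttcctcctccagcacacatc
Of the 10 genes, 7 had such windows. Hmox1, Slc40a1 and Slc11a2 had none and were not searched, nor was any sequence outside the windows. The STAT palindrome, searched after the values were known, was found in Steap4 alone of the 7, with its first base 116 bases before the start, and in 7.02% of all 32851 windows. The core of the antioxidant response element, TGACNNNGC, was found in 0 of the 7 genes and in 10.2% of all windows. The core of the hypoxia response element, ACGTG, was found in 1 of the 7, Tfrc, and in 16.6% of all windows. Counts for the 7 are by gene and the shares by window. Fth1, Tfrc, Cp and Steap3 had several windows, so counts and shares are not directly comparable. All 3 motifs were searched on both strands and no match overlapped another in the windows shown. A match describes these letters and is not a binding site.

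By pattern over the 4 pools, the protein-coding genes nearest to Steap4 were Itih4, a plasma protein of the inter-alpha-trypsin inhibitor family, Lcn2, and Itgax, the CD11c integrin of alveolar macrophages and dendritic cells. Their Euclidean distances to Steap4, on log2 values centred on each gene's mean, were 0.071, 0.35 and 0.35. Over only 4 pools this is a description of likeness. The 3 genes were picked here for that likeness, so smoke differences near those of Steap4 follow from the choice and add no support. Itih4 was 4.51-fold higher after 2 weeks and 3.87-fold after 4 weeks, against 4.43-fold and 3.79-fold for Steap4. Lcn2 was 6.03-fold and 4.40-fold higher, and Itgax 3.27-fold and 4.46-fold. Itgax rose (limma adjusted p = 0.00286), but the call did not hold after median centring (0.0720) or cyclic loess (0.0581), with effects of 1.93 and 1.98 there.

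**Figure D2:**
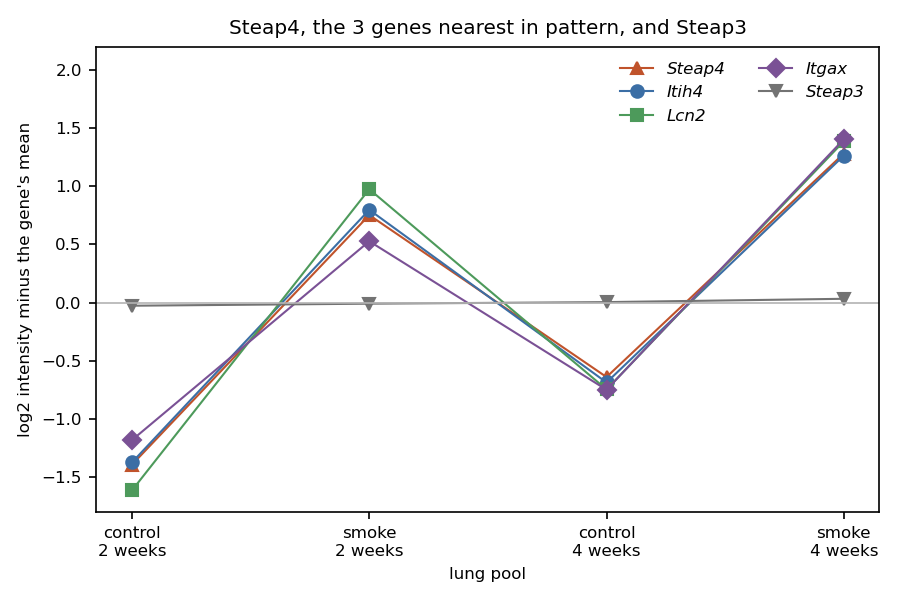
Log2 intensity minus the gene's mean over the 4 pools (y axis) in each lung pool (x axis) for Steap4, its 3 nearest genes in pattern (Itih4, Lcn2, Itgax) and Steap3, 1 array per pool. Steap4 and its neighbours zigzag together between control and smoke, while Steap3 stays on a flat line.

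Hmox1, the inducible heme oxygenase that turns heme into biliverdin, carbon monoxide and iron, was at 8.17 with clean air and 8.46 with smoke at 2 weeks, and at 8.41 and 8.86 at 4 weeks. Both smoke pools lay above both control pools, although the 2-week smoke pool was only just above the 4-week control. Smoke differences were 1.22-fold at 2 weeks and 1.37-fold at 4 weeks, beside 1.18-fold between the 2 control pools. The effect of 0.37 ± 0.105 did not pass (limma adjusted p = 0.226), and it ran from 0.17 without the 4-week smoke pool to 0.57 without the 2-week smoke pool. Of the other genes of heme breakdown, the constitutive oxygenase Hmox2 was at 0.16 ± 0.117 and the biliverdin reductase Blvrb at 0.24 ± 0.100, also without passing.

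The ferritin shell is built from heavy chains (Fth1), which oxidise iron, and light chains (Ftl1), which help to lay down its mineral core. Fth1 was at 16.50 with clean air and 16.61 with smoke at 2 weeks, and at 16.48 and 16.80 at 4 weeks. Its control pools nearly coincided and its smoke pools lay above them, most of all after 4 weeks (1.25-fold, against 1.08-fold after 2 weeks). The effect was 0.22 ± 0.109 (limma adjusted p = 0.539), with 0.12 without the 4-week smoke pool and 0.31 without the 2-week smoke pool. All 4 Fth1 values exceeded 16 log2 units, the top of a 16-bit scan, and no source used here gives the step that put them there.

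Ftl1 was at 14.10 with clean air and 14.51 with smoke at 2 weeks, and at 14.70 and 14.97 at 4 weeks. Here the control pools differed more (1.51-fold) than smoke did from control at 2 weeks (1.33-fold) or at 4 weeks (1.21-fold), and the groups overlapped. The effect was 0.34 ± 0.104 (limma adjusted p = 0.257), and it ran from 0.043 without the 2-week control pool to 0.64 without the 4-week control pool. The Ftl1 feature carried 3 gene identifiers, and 2 further features listed Ftl1 beside other symbols and were not used, so its signal may be shared with near-identical copies and is uncertain. Ncoa4, the receptor that takes ferritin to lysosomes, was at 0.25 ± 0.101 (limma adjusted p = 0.409).

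Among genes of iron export, Cp, the copper-containing ferroxidase of plasma that airway cells also make, was at 13.82 with clean air and 14.18 with smoke at 2 weeks, and at 13.88 and 14.34 at 4 weeks. The control pools were 1.04-fold apart, while smoke was 1.28-fold higher after 2 weeks and 1.37-fold after 4 weeks, and the groups did not overlap. After Steap4 it had the largest effect of the 10, 0.41 ± 0.102, which did not pass (limma adjusted p = 0.171). Slc40a1, the iron exporter ferroportin, was at 7.12 and 7.26 in the 2-week control and smoke pools and at 7.29 and 7.17 in those of 4 weeks. It was thus higher with smoke at 2 weeks (0.15) and lower at 4 weeks (-0.11), with groups that overlapped and an effect of 0.015 ± 0.113 (limma adjusted p = 0.985). The hormone that degrades ferroportin, hepcidin (Hamp), was at 0.15 ± 0.108, and did not pass.

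For iron uptake, Tfrc, the transferrin receptor, was at 10.43 and 10.44 in the 2-week control and smoke pools and at 10.20 and 10.29 in those of 4 weeks. Its pools differed by duration more than by smoke, with the 4-week control 0.24 log2 units below the 2-week control (-0.24), and the effect of smoke was 0.051 ± 0.102 (limma adjusted p = 0.928). Its difference at 2 weeks turned to -0.022 after median centring. Slc11a2, the proton-coupled transporter of ferrous iron DMT1, was at 9.17 with clean air and 9.56 with smoke at 2 weeks, and at 9.41 and 9.74 at 4 weeks. Both smoke pools lay above both controls. Within each duration smoke was 1.31-fold higher after 2 weeks and 1.25-fold after 4 weeks, beside 1.18-fold between the 2 control pools. The effect was 0.36 ± 0.101 (limma adjusted p = 0.220), with 0.24 without the 2-week control pool and 0.48 without the 4-week control pool.

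Slc11a1, the related metal transporter NRAMP1 of macrophage phagosomes, was at 7.28 with clean air and 7.47 with smoke at 2 weeks, and at 7.55 and 7.94 at 4 weeks. The 2-week smoke pool lay below the 4-week control, so the groups overlapped, although smoke was higher within each duration (1.14-fold and 1.31-fold). The effect was 0.29 ± 0.108 (limma adjusted p = 0.365), and it ran from 0.055 without the 4-week smoke pool to 0.53 without the 2-week smoke pool, with 0.16 without the 2-week control pool.

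**Figure D3:**
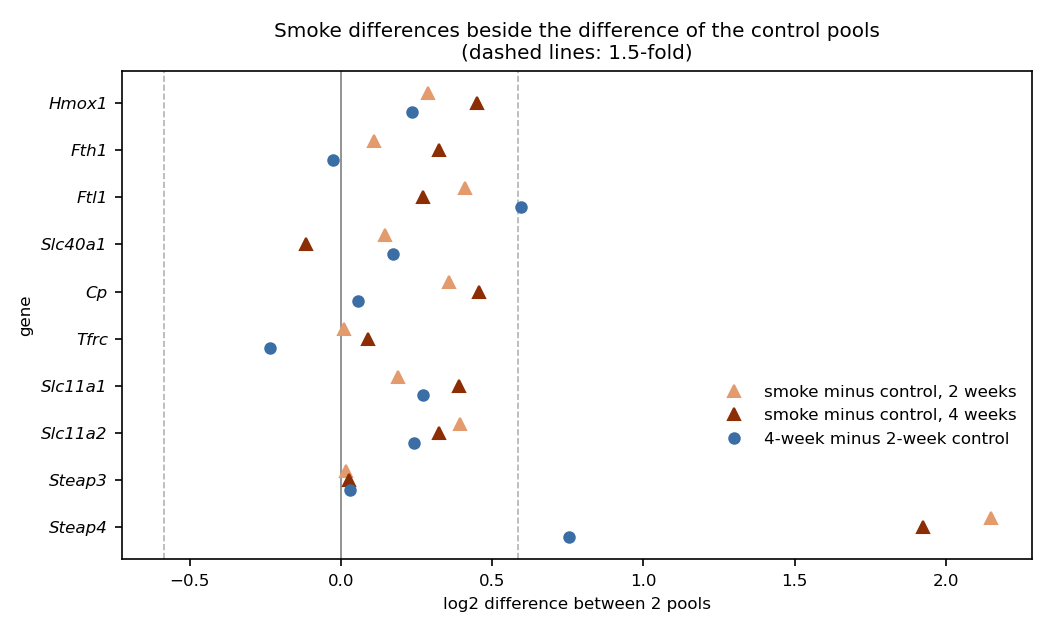
Log2 differences between pairs of lung pools (x axis) for the 10 genes (y axis): smoke minus control after 2 weeks (light triangles) and 4 weeks (dark triangles), and the 4-week minus the 2-week control pool (circles), 1 array per pool. Only Steap4 passes the dashed 1.5-fold lines with smoke, and Ftl1 and Steap4 pass them between the control pools.

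Counted together, 1 of the 10 genes rose and 0 fell with limma, where 1.47% of all 18084 genes passed in either direction. Over the whole array 208 genes rose and 57 fell, against 8 and 0 after median centring and 24 and 0 after cyclic loess. At an unadjusted p under 0.05, 6 of the 10 were higher and 0 lower (Hmox1, Ftl1, Slc11a1, Slc11a2, Cp and Steap4), where 11.6% of all genes reached that value. The 10 genes were chosen with earlier results of these data known. The shares of all genes in this paragraph therefore give scale and are no test of the list. The count depended on which genes were fitted: among 12649 protein-coding genes alone, 6.99% passed, and 4 of the 10 rose, namely Steap4, Cp (adjusted p = 0.0180), Hmox1 (0.0351) and Slc11a2 (0.0355), with Ftl1 at 0.0501. At least 1.5-fold differences were seen for 1 of the 10 after 2 weeks (3.04% of all genes) and for 1 after 4 weeks (4.04%), Steap4 both times; 1.47% of all genes differed so the same way at both durations. Between the control pools 2 of the 10, Ftl1 and Steap4, differed as much, beside 4.09% of all genes. In 9 of the 10 genes smoke was higher at both durations by any amount, as in 27.2% of all genes, but in 8 after cyclic loess and in 7 after median centring, where Steap3 and, with centring, Tfrc turned at 2 weeks. In 5 of the 10, Hmox1, Fth1, Slc11a2, Cp and Steap4, both smoke pools lay above both control pools, as in 15.7% of all genes, and these 5 did so under both other scalings as well. The median effect of the 10 was 0.32, or 0.29 without Steap4, beside -0.0038 over all genes tested. It depended on single pools, with 0.12 without the 4-week smoke pool, 0.20 without the 2-week control pool, 0.43 without the 4-week control pool and 0.47 without the 2-week smoke pool.

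The 4-week minus the 2-week difference ran from -0.26 (Slc40a1) to 0.22 (Fth1) and was -0.22 for Steap4, and with 1 pool per group none of these changes was tested. Smoke differences were larger at 4 than at 2 weeks in Hmox1, Fth1, Slc11a1, Cp, Tfrc and Steap3, smaller in Ftl1, Slc11a2 and Steap4, and opposite in Slc40a1.

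Of 67 further genes of heme and iron metabolism, 63 were measured and 56 lay above the floor, of which 1 rose, 1 fell and 54 did not pass, beside 1.47% of all genes called. Their median effect was 0.037. Lcn2 rose by 2.36 ± 0.135 (limma adjusted p = 0.00184), from 10.91 to 13.51 in the 2-week and from 11.78 to 13.92 in the 4-week pools. Its call was kept after cyclic loess (2.42, adjusted p = 0.0422) and without the 4-week control pool. It was lost after median centring (2.36, adjusted p = 0.0541), where 8 of all genes passed, and in the fits without any other single pool, where the effect ran from 1.93 to 2.57. Id1, a target of bone morphogenetic protein signalling that controls hepcidin in the liver, fell by 0.64 ± 0.101 (limma adjusted p = 0.0430), from 12.23 to 11.61 and from 12.54 to 11.88. The call was lost after median centring and cyclic loess, with effects of -0.65 (adjusted p = 0.124) and -0.59 (adjusted p = 0.115), and under these scalings 0 of all genes fell with limma. Without single pools the call was also lost, with effects from -0.79 to -0.48. Bmp6, the ligand of that pathway, singled out with its values known, was at -0.63 ± 0.113 (limma adjusted p = 0.0639), with 13.37 and 12.88 in the 2-week and 13.41 and 12.66 in the 4-week control and smoke pools.

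By group, 0 of 8 heme synthesis genes passed, with a median effect of 0.034. The erythroid synthase Alas2, likewise singled out with its values known, was at -0.54 ± 0.105 (limma adjusted p = 0.0859) and its control pools were 0.51 log2 units apart, with the 4-week pool the higher. None of 3 genes of heme breakdown passed (median 0.16), nor any of 8 carriers and heme transporters (median 0.080), among which the hemoglobin scavenger haptoglobin (Hp) was at 0.36 ± 0.101 and hemopexin (Hpx), the heme scavenger, at 0.078 ± 0.124. Of 12 genes of iron uptake and transport Lcn2 rose and 11 did not pass (median 0.058). Ltf (lactoferrin), also picked with its values known, had the largest effect of those 11, 0.87 ± 0.279 (limma adjusted p = 0.279). It was 2.89-fold higher after 2 weeks and 1.16-fold after 4 weeks, and its control pools were 2.11-fold apart. The 3 storage and chaperone genes did not pass (median 0.044). Of 9 regulators Id1 fell and 8 did not pass (median -0.025). These included the iron-regulatory proteins Aco1 (0.27 ± 0.102) and Ireb2 (-0.025 ± 0.115). Of 6 transcription factors measured, 5 lay above the floor and did not pass (median -0.16), among them the heme-sensing repressor Bach1 at -0.20 ± 0.101 and the oxidant-response activator Nfe2l2 (NRF2) at -0.015 ± 0.101. The 8 iron-sulfur cluster genes did not pass (median 0.027). At an unadjusted p under 0.05, 5 of the 56 genes were higher and 6 lower with limma, beside 11.6% of all genes in either direction.

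**Figure D4:**
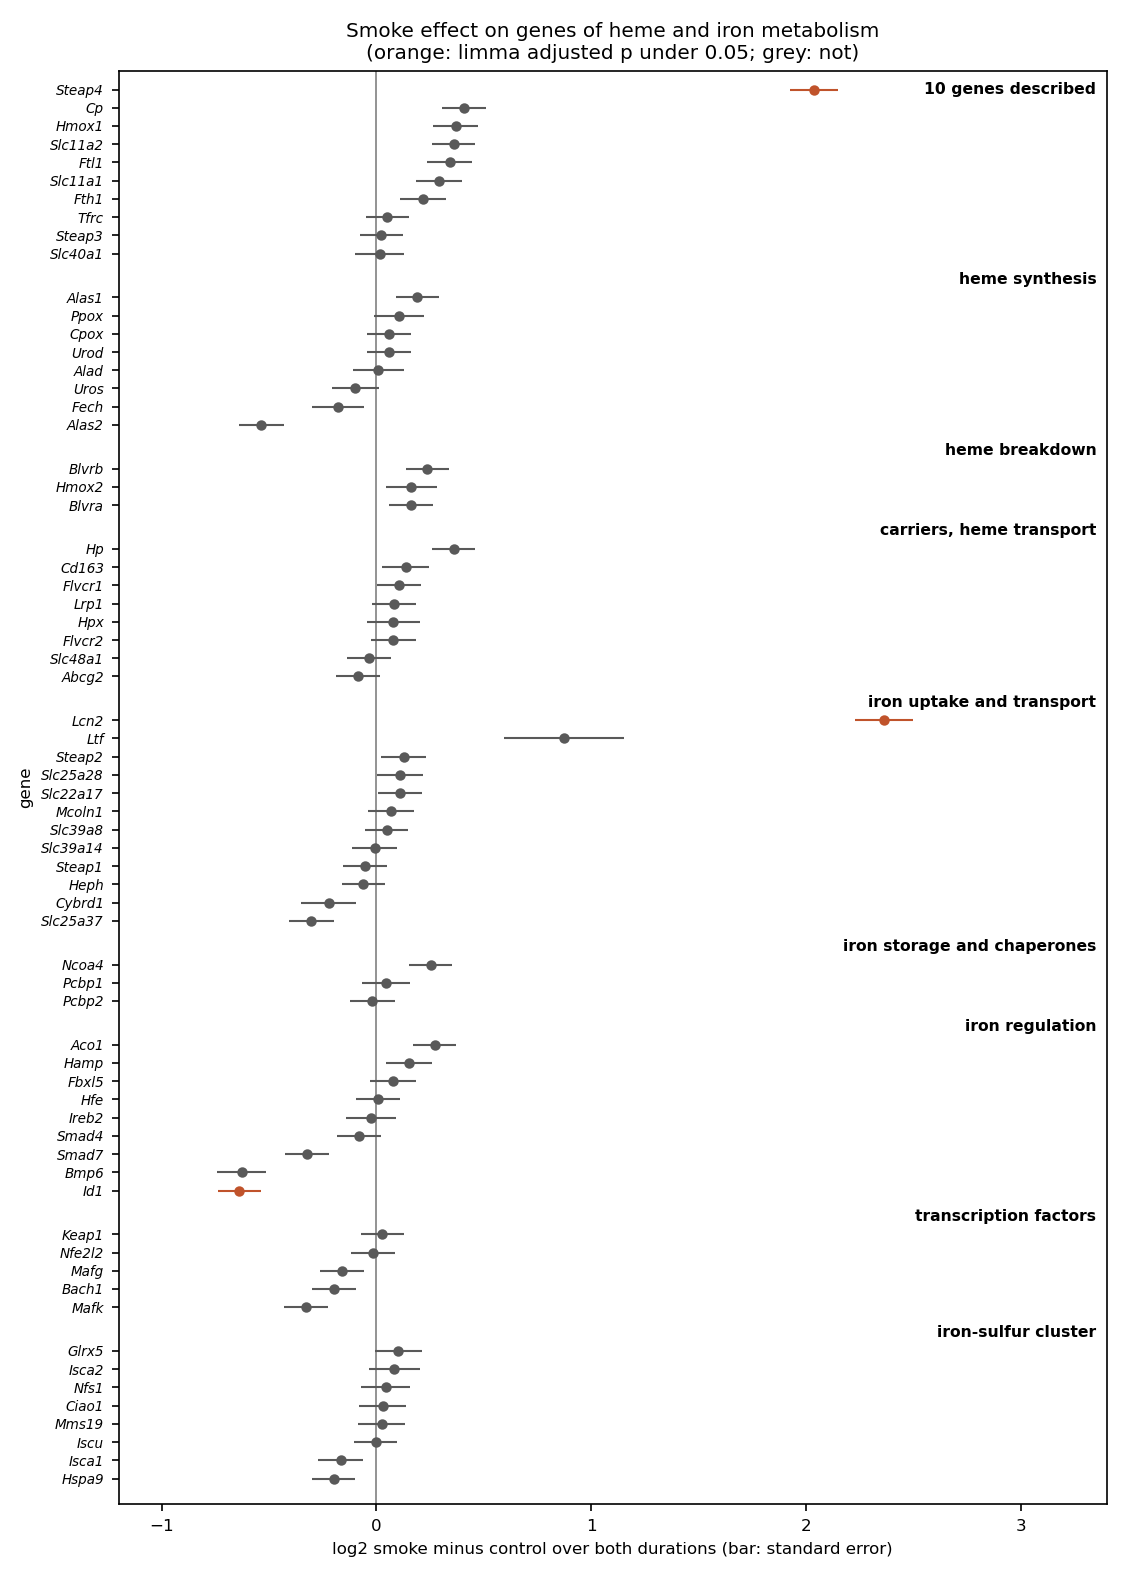
Smoke effect over both durations (x axis, log2 smoke minus control; bars are standard errors from limma) for the 10 genes and 56 other genes of heme and iron metabolism (y axis), grouped by role, over 2 smoke and 2 control pools. Steap4, Lcn2 and Id1 are coloured as passing; most other genes lie within 0.4 log2 units of 0.

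Markers of other cell types moved with smoke beside these values. Their calls are those of the fit as reported, where 1.47% of all genes passed in either direction. After median centring 8 of all genes rose and 0 fell, and after cyclic loess 24 and 0. The marker calls therefore cannot all hold under either scaling. The tissue carried lung genes at the top of every array, with the surfactant genes Sftpc and Sftpb and the club cell gene Scgb1a1 among the brightest features. Of 10 alveolar macrophage markers 8 were measured and 5 rose, while Car4 (0.26), Siglecf (-0.0025) and Krt79 (-0.32) did not pass. Krt79 was lower in both smoke pools than in both control pools. The summed intensity of the 8 was 16788 and 18693 in the control pools and 38147 and 55439 in the smoke pools. The largest part in the smoke pools was that of Atp6v0d2 (14665 and 20219). Of 10 monocyte and interstitial macrophage markers 9 were measured, 4 rose, and 7 lay higher in both smoke pools than in both control pools. Their median difference was 0.76 after 2 weeks and 0.70 after 4 weeks, with the complement gene C1qb 2.11-fold and 2.51-fold higher and Ms4a7 2.12-fold and 3.12-fold. Their summed intensity, 53218 and 91943 in the control and 63422 and 81638 in the smoke pools, was mostly that of the monocyte gene Ly6c2 (46829 and 84353 in the control pools, 55611 and 70893 in the smoke pools). All 10 neutrophil markers were measured, 7 above the floor, and 1, Mmp8, rose. The median difference of the 7 was 0.015 after 2 weeks and -0.90 after 4 weeks, beside 0.72 between the control pools. Sums over the 10 were 2750 and 4983 in the control and 2769 and 2272 in the smoke pools. Of 8 adipose markers 7 were measured and 0 passed, with sums of 1786 and 3906 in the control and 2972 and 2090 in the smoke pools. The part of these cells in the values of Steap4 and of the other 9 genes was not tested. Of 10 red cell markers 3 were measured, none above the floor, with sums of 117 and 123 in the control and 110 and 120 in the smoke pools, and their part in the value of Alas2 was not tested. All 5 endothelial markers were lower with smoke at both durations, 1 of them passing, with sums of 254158 and 252860 in the control and 224130 and 202816 in the smoke pools, and their part in the values of Id1 and Bmp6 was not tested. Of the 7 airway secretory markers 0 passed. Smoke was at least 1.5-fold higher after 2 weeks in 4 of them, where 3.04% of all genes differed so in either direction. These were Scgb3a1 by 3.90-fold, Bpifa1 by 3.10-fold, Reg3g by 4.53-fold and Muc5b by 1.51-fold. After 4 weeks these stood at 1.53-fold, 0.880-fold, 1.13-fold and 0.751-fold of the control. The clean-air pools themselves differed by 2.46-fold, 3.88-fold, 2.94-fold and 1.48-fold in the same order, the later one being higher. The list's sums, 1241185 and 1366803 in the control and 1295905 and 1337592 in the smoke pools, were mostly those of Scgb1a1 and Cyp2f2. The part of these cells in the value of Cp was not tested. None passed among 8 alveolar type 2, 5 heart muscle, 4 T cell and 2 B cell markers.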

How the data were processed

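RNA of 4 lung pools was hybridised as biotin-labelled cRNA (GeneChip WT PLUS), per the labels' protocols. The authors deposited intensities on a linear scale, which, per the submitters' processing notes, came from Affymetrix Expression Console 1.4.1 by RMA (background correction, quantile normalisation and probe summary). No source used here gives the genome build or any filter. RMA makes the arrays' distributions alike, so a shift of all genes would not be seen. Log2 of every deposited value fell on a step of 6 decimals (100% of values within 0.01 step, against 2.00% for the natural log), so the linear values were made with base 2. Whether the signal was transformed before that is not given.

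Features with 1 symbol were named from the array annotation, updated by Entrez ID through RefSeq GRCm38.p6 (22941 of 30604 features matched). Genes with a mean log2 intensity above the 40th percentile (5.82) were fitted with limma 3.58.1 (R 4.3.3), smoke plus duration, 1 residual degree of freedom; Benjamini-Hochberg adjustment covered all 18084 genes. The fit was also run on simulated data drawn from its own fitted prior, with equal smoke changes at both durations. Such data meet the model by design and cannot check the lack of replicate pools. Pools may differ technically. Each p-value rests on how far a gene's smoke difference changed between the durations, weighted with the prior variance over all genes. It holds no measure of how mice, or pools treated alike, would vary. The plan had assumed log2 values, and log2 of the linear intensities was taken instead. The number of arrays limits the precision. Columns of other samples numbered 0. The 10 genes, the wider lists and the marker lists were chosen with earlier results of these data known. Protein sequences were not used here. Named beside the 10 were wider-list genes that passed or differed 1.5-fold the same way at both durations, 12 set regulators and carriers where measured, and, for Steap4, the 3 nearest protein-coding genes. Bmp6, Alas2 and Ltf were named outside this rule, with their values known. Alternatives changed the scaling, the floor, the feature per gene, the genes fitted, the model, the shrinkage, the fold limit and the pools used.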

Additional observations from a re-analysis of the deposited data

Results flagged for a closer look

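Smoke differences pointing opposite ways at 2 and 4 weeks, 1 pool each, marked 4 of the genes named. The 4-week minus the 2-week difference was -0.26 for Slc40a1, 0.37 for Hpx, -0.28 for Ireb2 and 0.051 for Nfe2l2. The differences between durations were not tested.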

How the results depend on the processing

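The effects of Hmox1, Fth1, Ftl1, Slc11a1, Slc11a2, Cp, Steap3 and Steap4 over both durations stayed above 0 in every setting in which each was fitted. Only the scalings and the pools left out could change these effects. The floor, the feature per gene, the genes fitted, the duration term and the shrinkage left them as they were. Steap3 ran from 0.0020 to 0.044, less than its standard error of 0.100. The count of the 10 genes called was 1 with smoke plus duration, 4 with protein-coding genes only and 0 without the duration term (3 at an unadjusted p under 0.05, limma). It ran from 0 to 1 when single pools were left out, with 1 to 4 at an unadjusted p under 0.05. In those fits Slc40a1 ran from -0.071 to 0.10, with -0.029 without the 2-week smoke pool, and Tfrc from -0.066 to 0.17, with -0.026 without the 2-week smoke pool. Over single pools left out, Hpx ran from -0.055 to 0.21, Ireb2 from -0.18 to 0.13 and Nfe2l2 from -0.11 to 0.080 (0.054 without the 4-week control pool). Cyclic loess turned Ireb2 to 0.022 and Nfe2l2 to 0.035. The settings were planned for the 10 genes, and their use on Hpx, Ireb2 and Nfe2l2 was added after the data were seen. The count of wider genes, 2, became 0 after median centring (11 at an unadjusted p under 0.05, limma), 1 after cyclic loess, 1 with no floor, 4 with a floor at the 60th percentile, 6 with protein-coding genes only, 0 without duration (8 at an unadjusted p under 0.05, limma), and 0 to 1 without single pools (4 to 5). The count of genes 1.5-fold apart between the controls, 2, became 1 after median centring and 0 with a 2-fold limit. The causes were not tested; the prior degrees of freedom, 5.38 as reported, were 12.1 with protein-coding genes only, 3.27 after median centring and 3.30 after cyclic loess. With the 60th percentile floor Slc40a1 was not fitted. The natural-log alternative was not run, since the values settled the base as 2. The fit as reported already blocks each smoke pool with the control pool of its duration, and the fit without duration is the unpaired one.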
